A study of Mus musculus with 12 samples.

Results

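The 6 F4/80+ libraries of this mouse kidney series were divided into 2 sets of 3 that crossed the genotypes. Library set 1 was Arg/Arg replicate 1 with Trp/Trp replicates 2 and 3, and library set 2 was Arg/Arg replicates 2 and 3 with Trp/Trp replicate 1. These 6 libraries, of 12 in the series, were placed by the raw counts of their nuclear protein-coding genes, as they lie along the main axis of variation. The sets were therefore chosen from the values described here, so differences between them are given as a description, with no test. The other 6 libraries were whole kidney and appear only for scale. Transcripts of the proximal tubule and of fatty acid oxidation were lower in set 1, and those of the distal tubule, macrophages, cytokines and the clock gene Arntl were higher.

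All mice were edited with CRISPR-Cas9 and were homozygous for the Arg or for the Trp allele of a coding polymorphism of Sh2b3, which encodes an adaptor protein that restrains cytokine signalling. Every mouse had been infused for 4 weeks with angiotensin II, the hormone used to induce hypertension. No group without angiotensin II was analysed here, and strain, age and sex were not given in the sources used here. Each genotype gave 3 biological replicates. The F4/80+ cells came from kidneys other than those of the whole kidney libraries, by a Percoll gradient and microbeads against F4/80, a surface protein of mouse macrophages encoded by Adgre1.

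Kidney tissue is a series of epithelial segments with resident immune cells between them. The proximal tubule takes up filtered solutes and protein and makes glucose, and it lives largely on fatty acid oxidation. The thick ascending limb and the distal convoluted tubule take up salt and divalent ions, and the collecting duct holds principal cells for water and sodium and intercalated cells for acid and base. Resident macrophages carry F4/80, complement components and MHC class II, the proteins that display peptides to helper T cells. Preparing single cells from solid tissue is known to induce immediate early genes such as Fos, whose transcripts appear within minutes of a stimulus.

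Levels are given in CPM, counts scaled to a common library size over nuclear protein-coding genes after TMM scaling, in the order Arg/Arg 1, Trp/Trp 2, Trp/Trp 3 for set 1 and Arg/Arg 2, Arg/Arg 3, Trp/Trp 1 for set 2. Differences are set 1 minus set 2 in the mean of log2(CPM + 0.5), which understates changes of low genes. A gene is called separated where the sets did not overlap and the difference was at least 1, that is 2-fold. Of 12703 nuclear protein-coding genes with a mean count of at least 10, 321 (2.53%) were separated and higher in set 1, and 368 (2.9%) were separated and higher in set 2. With plain library sizes in place of TMM these counts were 588 and 175, and the median difference over all genes was 0.22 in place of 0.03. Without overlap, whatever the size, 1446 genes (11.4%) were higher in set 1 and 1769 (13.9%) in set 2.

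The first principal component of the protein-coding genes held 49.2% of the variance. Its scores were 19.1, 45.2 and 20.7 in set 1 and -45, -34.8 and -5.2 in set 2. Trp/Trp 1 was thus the member of set 2 nearest to set 1, and Arg/Arg 1 the member of set 1 nearest to set 2. On this component Trp/Trp 1 lay nearer to Arg/Arg 1 and Trp/Trp 3 than to either other member of set 2. The sets therefore cut a range of scores and are not 2 distinct clusters. The second component, with 25.2%, placed Trp/Trp 1 at 41.2 and Arg/Arg 3 at -34.8, the extremes of the 6 libraries. Without Trp/Trp 1, 824 genes were separated higher in set 1 and 649 in set 2. Without Trp/Trp 2 the counts were 276 and 178, and without Arg/Arg 2 they were 269 and 240. They were 485 and 536 without Arg/Arg 1, 402 and 423 without Arg/Arg 3, and 435 and 522 without Trp/Trp 3. List counts given below with 1 library left out are to be read beside these, each of 12703 genes.

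**Figure D1:**
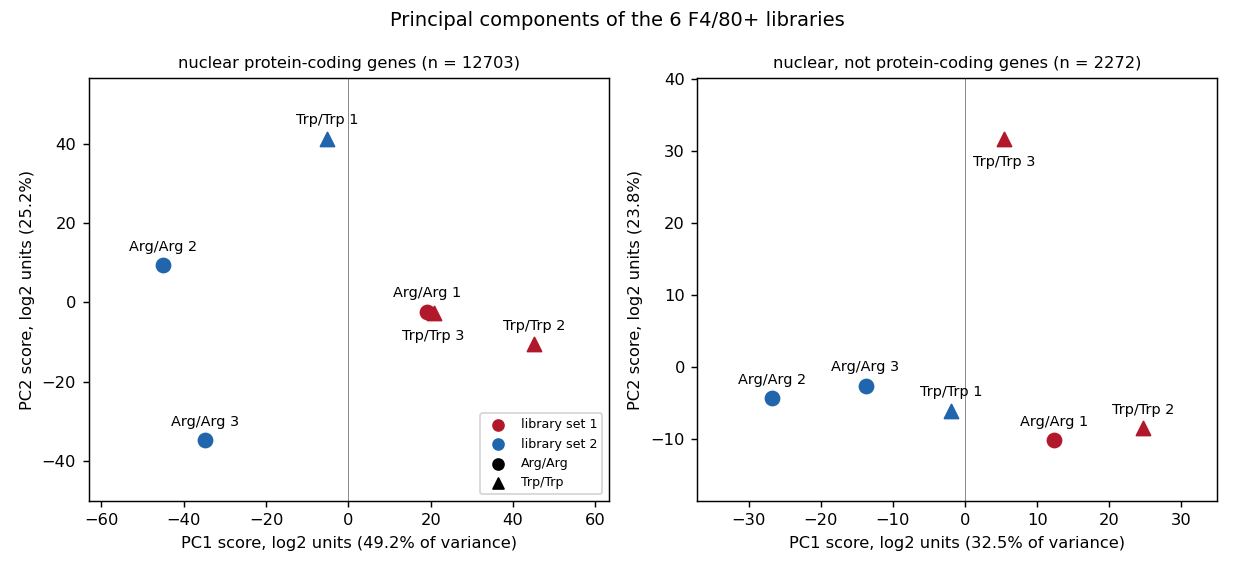
Scores of the 6 F4/80+ libraries on the first (x axis) and second (y axis) principal components of log2(CPM + 0.5), for 12703 nuclear protein-coding genes (left) and 2272 other nuclear genes (right); colour marks the library set and shape the genotype. In both panels the 3 libraries of set 1 lie at positive and the 3 of set 2 at negative scores on the first component, with Trp/Trp 1 closest to 0 at -5.2 and -1.9.

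Of the measures that the choice of the sets did not use, some separated the sets and others overlapped. Over 2272 nuclear genes that are not protein coding, the first component (32.5% of variance) had scores of 12.4, 24.7 and 5.4 in set 1 and -26.8, -13.8 and -1.9 in set 2. Of these genes, 67 (2.95%) were separated higher in set 1 and 94 (4.14%) in set 2. Slc13a2os, annotated antisense to Slc13a2 and chosen after its values were seen, was at 15.5, 3.6 and 23.4 against 44.5, 42.5 and 54.5 CPM over these genes, and without stated strand its reads cannot be told apart from those of Slc13a2. Mitochondrially encoded transcripts took 83.6, 82.3 and 83.6% of all counts in set 1 and 76.6, 79.3 and 70.1% in set 2. The mitochondrial share was thus higher in each library of set 1 than in any of set 2. Trp/Trp 1 had the lowest share, although on the protein-coding component it was the member of set 2 nearest to set 1. Mitochondrial ribosomal RNA, at 64.8, 66.1 and 68.5% against 60.3, 63.1 and 50.8% of all counts, did not overlap. Mitochondrial protein-coding transcripts, at 18.85, 16.16 and 15.03% against 16.24, 16.22 and 19.3%, overlapped and were highest in Trp/Trp 1. The part of the mitochondrial share in the differences below was not tested. With 3 libraries against 3, no exact two-sided permutation test can go below p = 0.1. Totals ran from 35.9 to 51.6 M counts per library (M for mega), of which 6.88 to 11.1 M lay in nuclear protein-coding genes.

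The label F4/80+ was checked against defining markers, per kilobase of exon so that genes can be compared. Adgre1, the gene of F4/80 itself, was at 0.429 to 4.99 CPM per kilobase over the 6 libraries. Umod, the most abundant secreted protein of the thick ascending limb, was at 696 to 2360, Slc12a3, the salt transporter of the distal convoluted tubule, at 201 to 547, and Lrp2, the protein uptake receptor megalin of the proximal tubule, at 81.3 to 368. Tubule transcripts therefore exceeded the macrophage marker in every library, against the label, and the libraries are named here by their label only. On the scale of genes in both tables, Adgre1 was at 10.8, 11.5 and 16.7 CPM in set 1 and 1.26, 2.05 and 2.15 CPM in set 2, beside 4.12 to 8.33 in whole kidney. Set 1 thus lay above and set 2 below every kidney library for this marker. Over 18 macrophage markers, set 1 did not lie above whole kidney. They stood at -0.49, -0.07 and 0.02 log2 units from the kidney mean in set 1. In set 2 they stood at -1.63, -2.06 and -0.6, and the kidney libraries spanned -0.34 to 0.53. Rank correlation with the mean of the whole kidney libraries was 0.892, 0.872 and 0.889 in set 1 and 0.918, 0.900 and 0.914 in set 2. In bulk RNA, fewer cells of a type and less RNA per cell cannot be told apart, here or in any result below.

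Genes of the proximal tubule were lower in set 1. Of the 21 markers of its early segments, all 21 had a negative difference, with a median of -1 against 0.03 over all genes. Higher in set 2 and separated were 10 of them, and without overlap 11, beside 2.9% and 13.9% of all genes. None was separated in the other direction. Summed over the list, set 1 held 17910 to 30320 CPM and set 2 39400 to 68780. Without Trp/Trp 1, 19 members were separated, beside 649 of 12703 genes. The count was 7 without Trp/Trp 2, and 8 without Arg/Arg 2, without Arg/Arg 3 or with plain library sizes. Over all genes these settings gave 178, 240, 423 and 175 higher in set 2.

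Lrp2 (mm10 chromosome 2, 69424340 to 69586065) was at 2214, 1357 and 2353 CPM in set 1 and at 5632, 6145 and 3383 CPM in set 2. The sets did not overlap, Trp/Trp 2 was lowest, and Trp/Trp 1 was the lowest of set 2. Means were 1975 ± 539 and 5053 ± 1470 CPM (SD, n = 3), a difference of -1.35. Pck1 (chromosome 2, 173153048 to 173159273), the enzyme that commits the proximal tubule to making glucose, was at 880, 490 and 885 CPM in set 1 and at 3156, 1949 and 2320 CPM in set 2. Its difference of -1.74 was the largest of the early segment list, and the lowest library of set 2 exceeded the highest of set 1. Slc34a1, the phosphate transporter of the brush border, was at 1562, 968 and 1326 CPM against 3729, 2739 and 2353 CPM.

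Fbp1, an enzyme of glucose synthesis, had a difference of -1.34 and was separated. So were Miox, which breaks down inositol (-1.33), the organic anion transporters Slc22a6 and Slc22a8 (-1.24 and -1.22), Cubn, the partner receptor of megalin (-1.17), and Slc4a4, which moves bicarbonate to the blood side (-1.004). The remaining members ran from -1.06 to -0.13. Slc6a19, the neutral amino acid transporter, had the largest of these and overlapped.

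In the 12 markers of the late segment, the median was -1.01 and 4 were separated higher in set 2, beside 2.9% of all genes. These were Napsa, an aspartic protease (-1.32), Cyp4b1, a monooxygenase (-1.15), Ggt1, which splits glutathione (-1.13), and Slc3a1, a subunit of the cystine transporter (-1.05). Cyp7b1 was the single member with a positive difference, 0.40. The mean of the late list overlapped between the sets, since Trp/Trp 3 stood at 0.05 log2 units from the mean of the 6 libraries and Trp/Trp 1 at -0.06. The 4 calls became 0 without Trp/Trp 2, 1 without Arg/Arg 2 and 1 with plain library sizes. They became 9 without Trp/Trp 1 and 8 without Trp/Trp 3, where 649 and 522 of 12703 genes were separated higher in set 2.

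In the ranking that follows, unnamed predicted genes (Gm and a number, or names ending in Rik) were left out. Among the other genes at a mean of at least 20 CPM, the 12 with the largest separation toward set 2 were Aacs, Hpd, Pck1, Tgm1, Dnase1, Slc13a2, Cyp2d9, Cyp2a5, Cyp2d26, Osgin1, Ak4 and Cela1, at -1.77 to -1.56. Aacs, which makes acetoacetyl-CoA in the cytosol, was at 35.9, 20.6 and 32.3 CPM in set 1 and 104, 108 and 87.4 CPM in set 2. Hpd, which degrades tyrosine, was at 28.3, 8.35 and 14.1 against 67.0, 40.9 and 49.6 CPM, and Slc13a2, a citrate transporter, at 21.2, 11.6 and 21.9 against 57.5, 49.3 and 62.0 CPM. The lowest library was Trp/Trp 2 in all 3 genes. Reads of the Cyp2d and Cyp2a genes may be split among close copies, so their values are uncertain. Toward set 1 the 12 were Lyz2, Arntl, H2-Aa, Tuba1a, Pmp22, Apold1, Bcl6, Tldc2, Rgs5, Cd93, Hmx2 and Filip1l, at 1.88 to 1.37. Tuba1a, a tubulin, was at 48.2, 54.5 and 54.2 CPM in set 1 and 17.1, 15.001 and 21.6 CPM in set 2, and Bcl6, a transcriptional repressor, at 57.0, 72.4 and 48.3 against 18.5, 14.001 and 33.8 CPM. Neither overlapped, and Tuba1a had the narrower sets.

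The distal segments had the opposite sign. All 10 markers of the distal convoluted tubule were higher in set 1, with a median of 0.74. Of them 5 were without overlap and 2 separated, beside 11.4% and 2.53% of all genes. Calb1, a calcium-binding protein of this segment, was at 1476, 2220 and 1626 CPM in set 1 and 534, 630 and 1006 CPM in set 2. The sets did not overlap and Trp/Trp 1 was again the member of set 2 nearest to set 1. Slc8a1, the sodium-calcium exchanger, had a difference of 1.18 and was separated. Trpm6, the magnesium channel, and Klhl3, which controls salt transport through WNK kinases, did not overlap, at 0.80 and 0.73. Slc12a3 overlapped, with 5736, 6085 and 3581 CPM in set 1 and 2555, 2234 and 5664 CPM in set 2. Without Trp/Trp 1, 5 of the 10 markers were separated, beside 824 of 12703 genes.

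In the thick ascending limb 12 of 13 markers were higher in set 1, with a median of 0.78. Only 1 gene was separated, beside 2.53% of all genes. That gene was Ptger3, a prostaglandin receptor, with 44.0, 80.6 and 60.2 CPM against 23.2, 32.9 and 33.1 CPM. Kcnj1, the potassium channel ROMK, and Casr, the calcium-sensing receptor, did not overlap, at 0.92 and 0.93. Umod was at 3421, 6517 and 3280 CPM in set 1 and 1922, 2017 and 3792 CPM in set 2. Trp/Trp 2 stood above all other libraries for Umod and Trp/Trp 1 lay within set 1, so the sets overlapped. Slc12a1, the transporter blocked by loop diuretics, had the same overlap, with 2490 CPM in Trp/Trp 2 and 531 to 1009 CPM elsewhere. The list median was 0.47 without Trp/Trp 2. The 1 call became 0 without Trp/Trp 2 or Arg/Arg 2, and 3 without Arg/Arg 1 or Trp/Trp 3. It became 9 without Trp/Trp 1, where 824 of 12703 genes were separated higher in set 1.

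Intercalated cell markers were higher in set 1 in 12 of 12 members, with a median of 0.60. Of them 5 were without overlap and 2 separated, beside 11.4% and 2.53% of all genes. Slc26a4, the chloride-bicarbonate exchanger pendrin, was at 679, 565 and 887 CPM in set 1 and 281, 345 and 323 CPM in set 2. Hmx2, a homeobox gene on this list, had a difference of 1.40 and was separated. Foxi1, the factor that specifies intercalated cells, and Atp6v0d2, a proton pump subunit, did not overlap, at 0.999 and 0.96. Leaving out 1 library gave 1 (Trp/Trp 3) to 5 (Trp/Trp 2) separated members. Principal cell markers had a median of 0.34 over 11 genes, which ran from 0.15 without Arg/Arg 3 to 0.77 without Trp/Trp 1, and none was separated. Aqp2, the water channel of principal cells, was at 98.5, 98.0 and 109 CPM in set 1 and 74.0, 48.9 and 219 CPM in set 2, so that Trp/Trp 1 was highest of all.

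**Figure D2:**
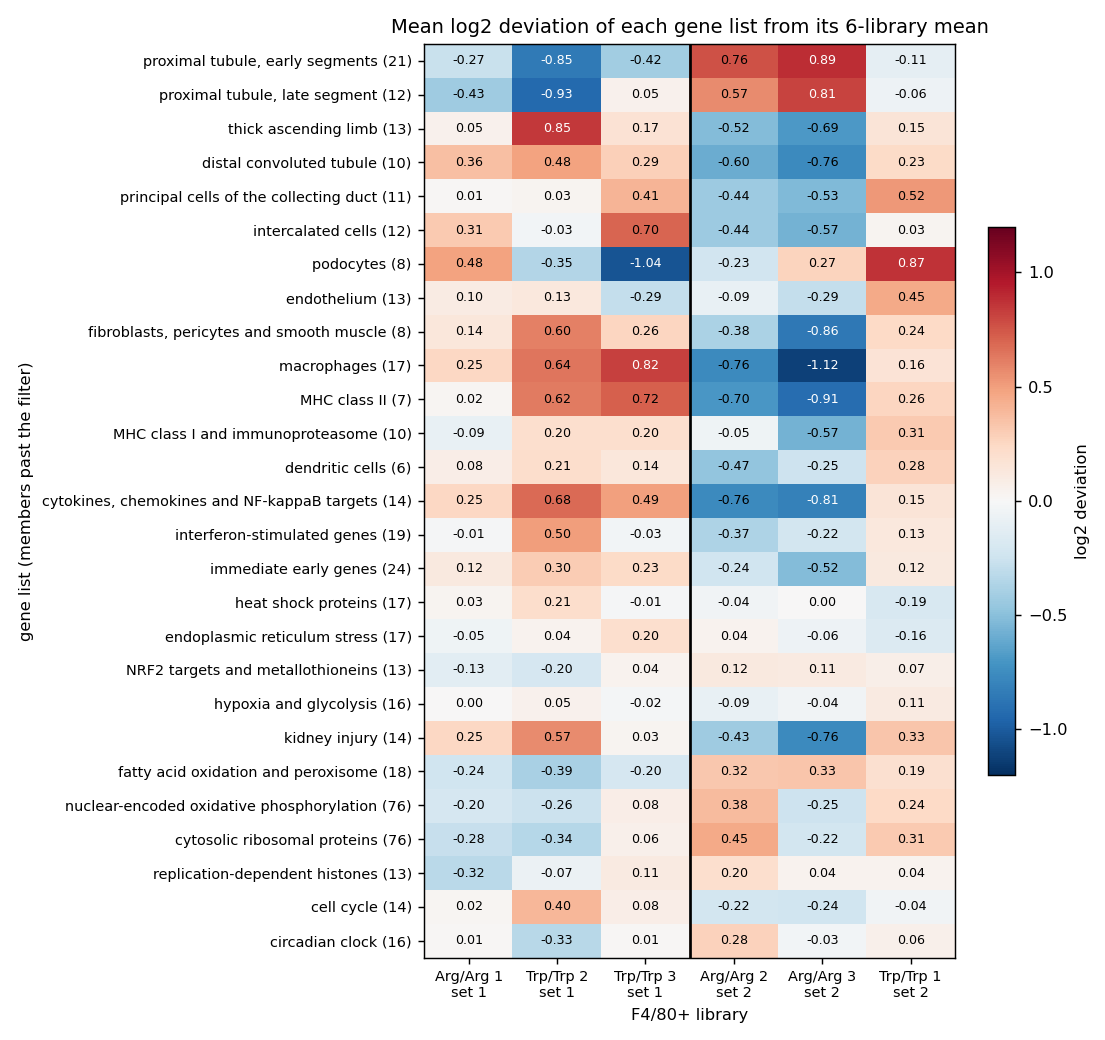
Mean log2 deviation of each gene list (rows, with the number of members past the filter) from its mean over the 6 F4/80+ libraries (columns, set 1 left of the line); red is above and blue below that mean. The early proximal tubule was at -0.27 to -0.85 in set 1, while Arg/Arg 2 and Arg/Arg 3 were at 0.76 and 0.89 and Trp/Trp 1 at -0.11; macrophage markers were at 0.25 to 0.82 in set 1 and at -0.76, -1.12 and 0.16 in set 2.

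Of 8 markers of podocytes, the filter cells of the glomerulus, 7 were lower in set 1, with a median of -0.53, which was -0.17 without Trp/Trp 3 and -0.23 without Trp/Trp 1. None was without overlap, and the list stood at 0.48, -0.35 and -1.04 in set 1 and -0.23, 0.27 and 0.87 in set 2. Nphs1, which encodes nephrin, was at 7.83, 1.498 and 1.66 CPM in set 1 and 4.59, 6 and 11.2 CPM in set 2. Trp/Trp 1 was highest and Arg/Arg 1 next, so the sets overlapped.

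Of 13 endothelial markers 9 were higher in set 1 and 4 in set 2, with a median of 0.11, which was 0.44 without Trp/Trp 1. Separated were 2, both higher in set 2, beside 2.9% of all genes. The count was 1 without Arg/Arg 2 or Trp/Trp 1 and 0 with plain library sizes. Ptprb, a phosphatase of vessels, did not overlap in the opposite direction, at 0.69. Genes named in this paragraph were chosen after their values were seen. Kdr, the main receptor for vascular endothelial growth factor, was at 44.4, 18.2 and 10.2 CPM in set 1 and 44.5, 67.2 and 71.4 CPM in set 2, so that Arg/Arg 1 and Arg/Arg 2 were nearly level. Ehd3, a membrane-trafficking protein of glomerular endothelium, was at 44.1, 17.4 and 16.2 against 57.4, 45.002 and 78.9 CPM. Among pericyte and fibroblast genes, Rgs5, a regulator of G protein signalling in pericytes, was at 316, 531 and 471 against 157, 163 and 146 CPM, and Dcn, the matrix proteoglycan decorin, at 12.4, 14.7 and 10.3 against 2.36, 2.56 and 2.38 CPM. These were the 2 separated members of 8, beside 2.53% of all genes. Both were higher in set 1, with little spread in set 2.

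Macrophage markers were higher in set 1, with a median of 1.23 over the 17 of 20 that passed the filter. Of the 17, 7 were separated, all higher in set 1, beside 2.53% of all genes. Adgre1 (chromosome 17, 57358691 to 57483527) was at 9.99, 10.5 and 16.2 CPM in set 1 and 1.39, 2.33 and 2.11 CPM in set 2. The sets were far apart, with a difference of 2.37, but the 6 libraries held only 354 counts of Adgre1 in all. With a pseudocount of 2 its difference was 1.83.

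Ctss, a lysosomal protease of antigen-presenting cells, was at 15.1, 24.2 and 28.8 CPM in set 1 and 3.20, 4.22 and 9.42 CPM in set 2. Lyz2, the lysozyme of myeloid cells, was at 54.5, 63.7 and 96.8 against 12.5, 14.1 and 35.9 CPM. In both genes Arg/Arg 1 was lowest in set 1 and Trp/Trp 1 highest in set 2, and the sets did not overlap. Ms4a7, Mpeg1, which encodes a pore-forming protein, C1qa, a complement subunit, and Mrc1, the mannose receptor, were the other separated members, at 2.24, 2.00, 1.51 and 1.23. Ms4a7 was at 2.43, 4.49 and 9.04 CPM in set 1 and at 0.417, 0.111 and 1.85 CPM in set 2. Its set 2 values lay near the floor and it passed the filter through set 1, so its call carries little weight. At a mean count of at least 50, 5 macrophage markers were separated.

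Not every marker moved with them. Csf1r, the growth factor receptor that macrophages need, was at 23.2, 26.1 and 22.5 CPM in set 1 and 17.5, 17.8 and 28.7 CPM in set 2, and so overlapped. Mertk, a receptor for the uptake of dead cells, and Lgmn, a lysosomal protease also abundant in the proximal tubule, had negative differences of -0.31 and -0.62. Summed over the list, with Lgmn and Apoe in it, set 1 held 463 to 568 CPM and set 2 458 to 470. The list median was 0.66 without Arg/Arg 3, and 1.79 with 14 separated without Trp/Trp 1, beside 824 of 12703 genes.

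All 7 MHC class II genes past the filter were higher in set 1, with a median of 0.83. Only 1 was separated, beside 2.53% of all genes. H2-Aa, a class II alpha chain, was at 86.4, 125 and 156 CPM in set 1 and 31.3, 23.4 and 76.4 CPM in set 2. Cd74, the invariant chain that loads class II, was at 57.8, 92.5 and 109 against 24.7, 18.1 and 69.7 CPM. H2-Eb1 and H2-Ab1 had the same overlap as Cd74. It came from Trp/Trp 1, which exceeded Arg/Arg 1 in all 3 genes. The list median was 0.44 without Arg/Arg 3 and 1.33 without Trp/Trp 1, and 4 were separated without Arg/Arg 1 or without Trp/Trp 1. Over all 12703 genes, 485 were separated higher in set 1 without Arg/Arg 1 and 824 without Trp/Trp 1.

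Cytokine and chemokine genes had a median of 1.13 over 14 genes. Of these, 4 were separated, all higher in set 1, beside 2.53% of all genes. Ccl3 and Ccl4, chemokines of activated myeloid cells, were at 9.18, 19.5 and 16.7 against 3.06, 1.33 and 6.42 CPM, and at 5.13, 7.38 and 8.91 against 0.695, 1.33 and 1.94 CPM. Cxcl2, which attracts neutrophils, and Ptgs2, the inducible cyclooxygenase, were the others, at 1.59 and 1.36. Il1b, the gene of interleukin-1 beta, was at 38.1, 69.3 and 101 CPM in set 1 and 13.1, 8.56 and 40.4 CPM in set 2, so Trp/Trp 1 lay just above Arg/Arg 1. Cxcl1 had a negative difference of -0.79 and overlapped. The list median was 0.54 when only genes averaging at least 50 counts were kept. Of this list, 7 and 9 genes were separated higher in set 1 without Arg/Arg 1 and without Trp/Trp 1. Over all 12703 genes these counts were 485 and 824.

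Other immune lists set the libraries less apart. MHC class I and the immunoproteasome had a median of 0.16 with none of 10 separated, which was -0.15 without Arg/Arg 3. The 19 interferon-stimulated genes had a median of 0.26 (0.03 without Trp/Trp 2 and 0.12 without Arg/Arg 2). Separated higher in set 1 were 2, beside 2.53% of all genes, or 1 without Trp/Trp 2 and 3 without Trp/Trp 1 or Trp/Trp 3. These were Oasl2, an interferon-induced member of the OAS family (6.62, 8.56 and 10.3 against 1.81, 2.00 and 6.51 CPM), and Ifit2, which binds foreign RNA (4.59, 7.60 and 3.69 against 1.53, 1.89 and 2.64 CPM). Cd3e, Cd79a and S100a8, the defining genes of T cells, B cells and neutrophils, were not analysed here, and of the lists for these cells 2 of 19, 2 of 11 and 1 of 10 genes had a row in the table used.

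**Figure D3:**
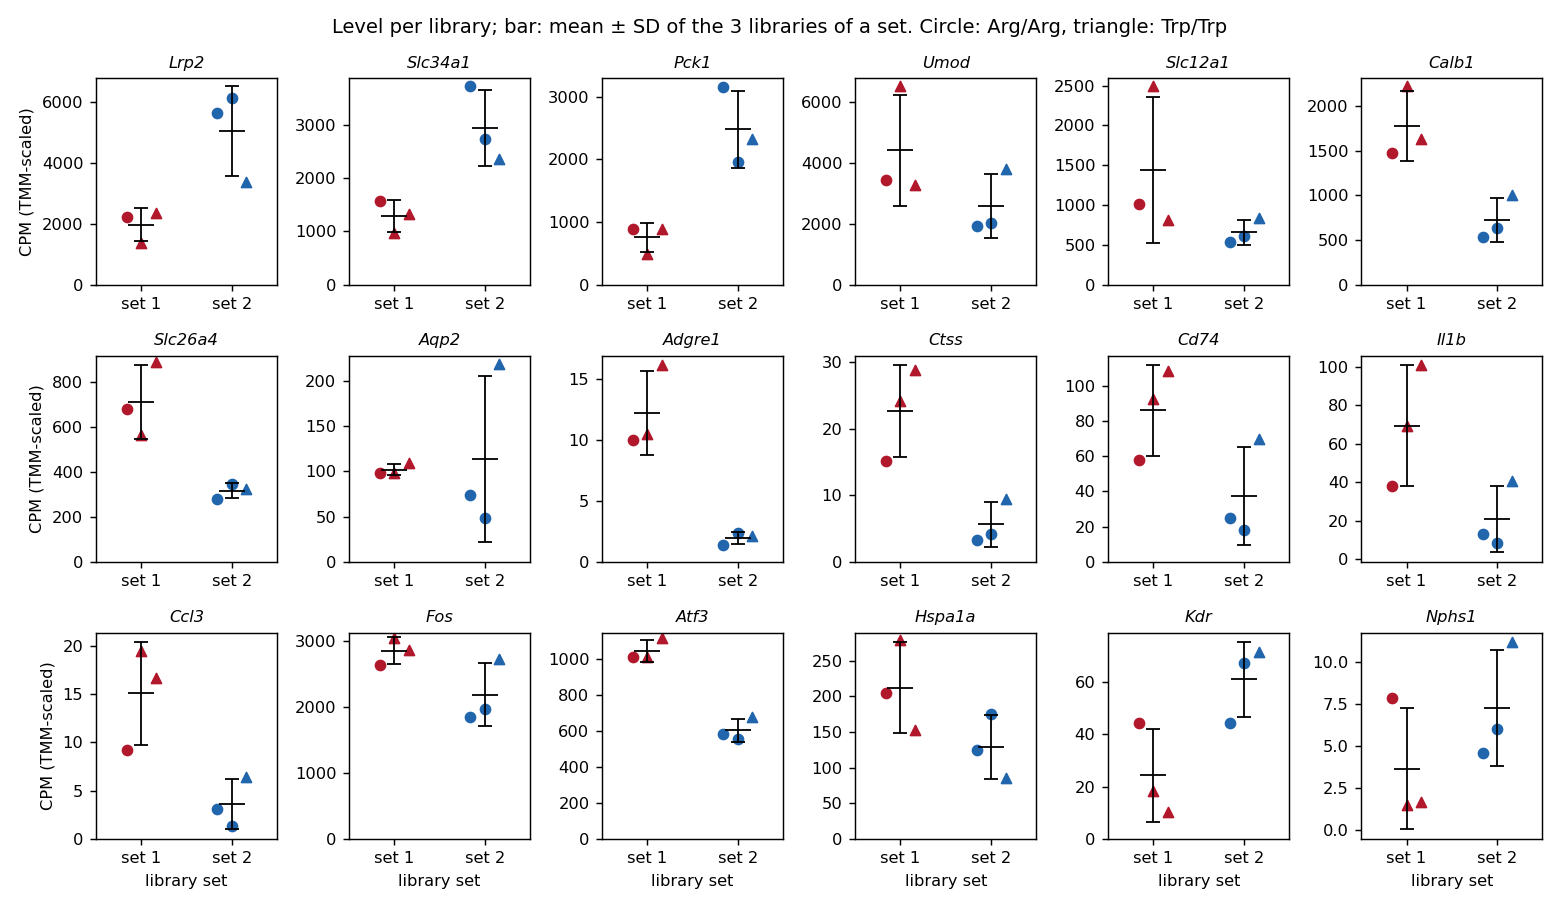
Level of 18 genes in each F4/80+ library (y axis, TMM-scaled CPM from 0) by library set (x axis); circles are Arg/Arg, triangles Trp/Trp, and the bars are the mean ± SD of 3 libraries. Lrp2, Slc34a1 and Pck1 were lower and Calb1, Slc26a4, Adgre1, Ctss and Atf3 higher in each library of set 1, whereas Umod, Aqp2, Cd74, Il1b, Fos, Hspa1a and Nphs1 overlapped.

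Stress genes differed by list. Immediate early genes were higher in set 1 in 21 of 24 members, with a median of 0.40. Without overlap were 8, beside 11.4% of all genes. Only Egr3 and Klf2 among the 24, both zinc finger factors, were separated, at 1.18 and 1.01. Over all genes 2.53% were separated higher in set 1. Atf3, a stress-induced repressor, was at 1012, 1014 and 1120 CPM in set 1 and 584, 556 and 678 CPM in set 2. Its sets did not overlap and each was narrow, with a difference of 0.79. Btg2, an antiproliferative gene, and Klf6 were alike, at 0.89 and 0.82. The list median was 0.70 without Trp/Trp 1, and none was separated without Trp/Trp 2.

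The best-known members of this group overlapped. Fos was at 2636, 3048 and 2863 CPM in set 1 and 1846, 1965 and 2730 CPM in set 2, where Trp/Trp 1 lay within set 1. Egr1 was at 1726, 1923 and 2047 against 1820, 1285 and 2395 CPM, with a difference of 0.09. Each F4/80+ library was far from whole kidney on the scale of genes in both tables, where the list lay 4.03, 4.24 and 4.08 log2 units above the kidney mean in set 1 and 3.43, 3.10 and 3.96 in set 2. Thus the difference between sets was small beside the distance of both from whole kidney, whose libraries spanned -0.15 to 0.29.

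Heat shock genes had a median of 0.21 and none of 17 was separated. Hspa1a, the inducible chaperone, was at 205, 280 and 152 CPM in set 1 and 125, 176 and 85.3 CPM in set 2, and reads may be split between it and its near copy Hspa1b. Genes of endoplasmic reticulum stress had a median of 0.06, with none of 17 separated. Hspa5, the chaperone BiP, was at 1019, 1179 and 1094 against 917, 1059 and 640 CPM. Dnajb9, its partner, was likewise lowest in Trp/Trp 1, at 25.8 CPM against 38.4 to 64.3 elsewhere.

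Hypoxia and glycolysis genes, 16 in number, had a median of 0.06 and none was separated. Ldha, the enzyme that makes lactate, was at 685, 546 and 785 CPM in set 1 and 1041, 1010 and 1087 CPM in set 2, and did not overlap. Pdk1, which limits the entry of pyruvate into mitochondria, did not overlap in the opposite direction, at 0.75. Among 13 targets of NRF2, the factor of oxidative stress, and metallothioneins, the median was -0.14. Of these 1 was separated, higher in set 2, beside 2.9% of all genes. This was Osgin1, an oxidative stress gene, with 44.7, 24.0 and 59.1 CPM in set 1 and 173, 108 and 97.8 CPM in set 2.

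Kidney injury genes had a median of 0.68 over 14 genes, with 2 separated higher in set 1, beside 2.53% of all genes. The median was 0.26 without Arg/Arg 3, and 1.08 with 8 separated without Trp/Trp 1, beside 824 of 12703 genes. Vcam1, an adhesion molecule of injured tubule and of vessels, was at 11.5, 27.1 and 10.7 CPM in set 1 and 3.61, 3.78 and 6.51 CPM in set 2. Cd44, the hyaluronan receptor, was at 4.19, 7.60 and 2.55 against 0.973, 1.22 and 1.76 CPM. Sox9, a factor of tubule repair, and Vim did not overlap, at 0.89 and 0.99. The usual injury markers overlapped: Havcr1, which encodes KIM-1, was at 1.89, 1.93 and 0.509 against 4.17, 1.11 and 3.34 CPM, and Lcn2, which encodes NGAL, was highest in Trp/Trp 1 at 21.7 CPM and at 5.14 to 16.3 elsewhere.

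Fatty acid oxidation and peroxisome genes were lower in set 1 in 17 of 18 members, with a median of -0.49, 10 without overlap in that direction and 3 separated, beside 13.9% and 2.9% of all genes. Without Arg/Arg 2, Arg/Arg 3 or Trp/Trp 2, 2 were separated. The genes named here were chosen after their values were seen. Ppara, the nuclear receptor that drives this pathway, was at 39.1, 18.8 and 37.3 CPM in set 1 and 109, 72.9 and 58.4 CPM in set 2. Its sets did not overlap, and Trp/Trp 2 was lowest. Acaa1b, a thiolase, had a difference of -1.36 and was separated, and Hadhb, a subunit of the mitochondrial trifunctional protein, was the member with a positive one, 0.50.

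Genes for oxidative phosphorylation and ribosomal proteins had small differences. Of 76 nuclear-encoded respiratory chain genes 66 were lower in set 1, with a median of -0.27, and of 76 ribosomal protein genes 73 were, with a median of -0.36. None of either list was separated, and with plain library sizes the medians were -0.07 and -0.17. Without Arg/Arg 2 they were -0.11 and -0.22, and without Arg/Arg 3 -0.46 and -0.58. By library the ribosomal list stood at -0.28, -0.34 and 0.06 in set 1 and 0.45, -0.22 and 0.31 in set 2, and the respiratory chain list at -0.20, -0.26 and 0.08 against 0.38, -0.25 and 0.24, so that Arg/Arg 3 lay among set 1 in both.

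Circadian clock genes divided in 2 directions, with 4 of 16 without overlap higher in set 1 and 7 in set 2, beside 11.4% and 13.9% of all genes. The clock is a loop in which CLOCK and BMAL1, the product of Arntl, switch on Per, Cry, Nr1d1, Dbp and Ciart through E-boxes. NR1D1 and ROR receptors act back on Arntl through ROR elements, and DBP, HLF and TEF bind D-boxes. Since the phases of the loop differ, Arntl and many of these targets, though not all, peak at nearly opposite times of day. Times of tissue collection were not given in the sources used here. Clock genes other than Arntl, the motifs and the promoters below were chosen after the values were seen.

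Stretches of 3 clock gene promoters are shown because Arntl and Ciart lay at the ends of the list and Per3 was the clock gene with a D-box match, with motif matches in capitals, 5′ to 3′ on the gene's strand. They are RefSeq sequences of build GRCm38.p6. Arntl is given as 30 bases (chr7:113207528-113207557, plus strand) whose ROR element match starts 27 bases after the first transcribed base. Ciart is given as the 250 bases before its start (chr3:95882229-95882478, minus strand), with E-box matches 116, 58 and 44 bases before it. Per3 is given likewise (chr4:151044666-151044915, minus strand), with D-box matches 205 and 158 bases before it.
Arntl: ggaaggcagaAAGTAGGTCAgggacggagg
Ciart: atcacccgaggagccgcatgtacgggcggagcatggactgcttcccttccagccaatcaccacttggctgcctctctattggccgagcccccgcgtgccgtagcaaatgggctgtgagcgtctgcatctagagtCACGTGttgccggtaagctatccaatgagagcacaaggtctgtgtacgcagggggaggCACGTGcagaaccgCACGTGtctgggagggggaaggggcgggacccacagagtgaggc
Per3: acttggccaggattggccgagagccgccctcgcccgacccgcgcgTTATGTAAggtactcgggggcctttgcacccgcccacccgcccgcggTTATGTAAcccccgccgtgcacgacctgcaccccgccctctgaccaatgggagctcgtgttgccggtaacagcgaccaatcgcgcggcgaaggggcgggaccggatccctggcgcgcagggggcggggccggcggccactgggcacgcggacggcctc

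The motifs searched were AANT followed directly by AGGTCA (ROR element), CACGTG (E-box) and TTATGTAA (D-box), on both strands, from 250 bases before to 50 after each start. None of the matches shown overlapped a match of another of the 3 motifs. Of 32851 RefSeq promoters of that length, 0.219% held the ROR element, 7.15% the E-box and 0.938% the D-box. Of 15 clock genes with a promoter there, 1 held the ROR element (Arntl), 5 the E-box (Bhlhe41, Ciart, Cry1, Per1 and Tef) and 1 the D-box (Per3). These are counts of genes with a match in any of their promoters. The shares above are per promoter, and the 32851 promoters belonged to 27025 genes, so the units differ. A match describes the letters and is not a site in use.

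Arntl (mm10 chromosome 7, 113207465 to 113314126) was at 29.97, 38.7 and 27.9 CPM in set 1 and 6.67, 9.33 and 10.03 CPM in set 2. Each library of set 1 was far above each of set 2, with means of 32.2 ± 5.76 and 8.68 ± 1.77 CPM (SD, n = 3) and a difference of 1.84. In whole kidney, on the scale of genes in both tables, Arntl was at 14.2 to 25.1 CPM, where the F4/80+ libraries were at 32.3, 42.5 and 28.8 in set 1 and 6.07, 8.22 and 10.2 in set 2. The 2 sets lay on either side of all 6 kidney libraries. Cry1, a repressor of the loop, was separated in the same direction at 1.06, and Nfil3, which competes for D-boxes, did not overlap at 0.74.

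Ciart, a repressor driven by E-boxes, was at 4.32, 2.35 and 7.003 CPM in set 1 and 26.1, 12.001 and 12.4 CPM in set 2. Dbp was at 5.13, 2.78 and 9.17 against 16.7, 11.9 and 15.6 CPM, and Hlf at 65.3, 49.0 and 69.9 against 147, 154 and 95.3 CPM. All 3 were separated, with Trp/Trp 2 lowest in each. Leaving out 1 library gave 2 (Arg/Arg 2 or Trp/Trp 2) to 6 (Arg/Arg 1 or Trp/Trp 3) clock genes separated in this direction. Over all 12703 genes, 240, 178, 536 and 522 were separated higher in set 2 without these libraries, in the order named. In the other direction 1 clock gene was separated without Arg/Arg 3 or Trp/Trp 2. Per3, Tef and Nr1d1 did not overlap either, at -0.98, -0.96 and -0.90. Per1, which is also an immediate early gene, was at 49.7, 30.2 and 33.5 against 50.2, 26.1 and 40.8 CPM, with a difference of -0.03.

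**Figure D4:**
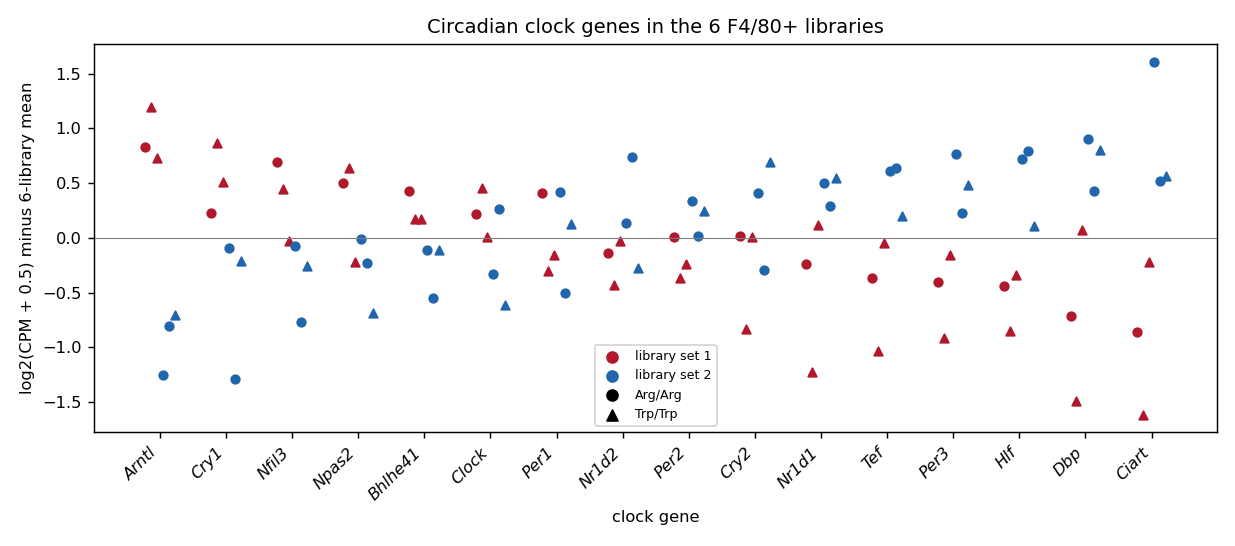
Log2(CPM + 0.5) of 16 clock genes (x axis, ordered by the difference between sets) in each F4/80+ library, as the difference from the mean of the 6 libraries (y axis); colour marks the set and shape the genotype. Arntl and Cry1 stand higher in all 3 libraries of set 1 and Per3, Hlf, Dbp and Ciart in all 3 of set 2, while Per1 and Clock overlap.

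The genes closest to the first component were taken among those at a mean of at least 20 CPM. Toward set 1 they were Calb1, Dsg2, a desmosomal cadherin, Hoxd8, a homeobox gene, and Pycard, the adaptor of inflammasomes, with Pearson's r of 0.996 to 0.999 over 6 libraries. Toward set 2 they were Zfp830, Sipa1l1, Btd, which recycles biotin, and Akr1a1, an aldehyde reductase, at -0.997 to -0.999. These genes entered the component themselves, so the values describe and do not test.

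Base composition moved with the libraries as well. Genes were placed in 5 equal bins by GC content of the longest transcript, and the median difference ran from 0.23 in the lowest bin, where 4.53% of genes were separated higher in set 1 and 0.827% in set 2, to -0.16 in the highest, with 0.709% and 4.21%. The libraries did not share this slope by set. Trp/Trp 1 went from -0.38 to 0.39 and Arg/Arg 3 from 0.26 to -0.22, although both are in set 2. By 5 bins of exon length the median difference ran from -0.13 in the shortest to 0.14 in the longest genes.

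With each library centred within the bins of GC content and of length, an alternative added after seeing the data, 291 genes were separated higher in set 1 and 310 in set 2, and 455 of the 689 calls remained. The early proximal tubule then had a median of -1.12 with 12 separated, macrophages 1.45 with 8, MHC class II 1.11 with 3, cytokines 0.96 with 4, immediate early genes 0.59 with 2 and the clock -0.36 with 2 higher in set 1 and 3 in set 2. These lists kept the sign of their medians.

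**Figure D5:**
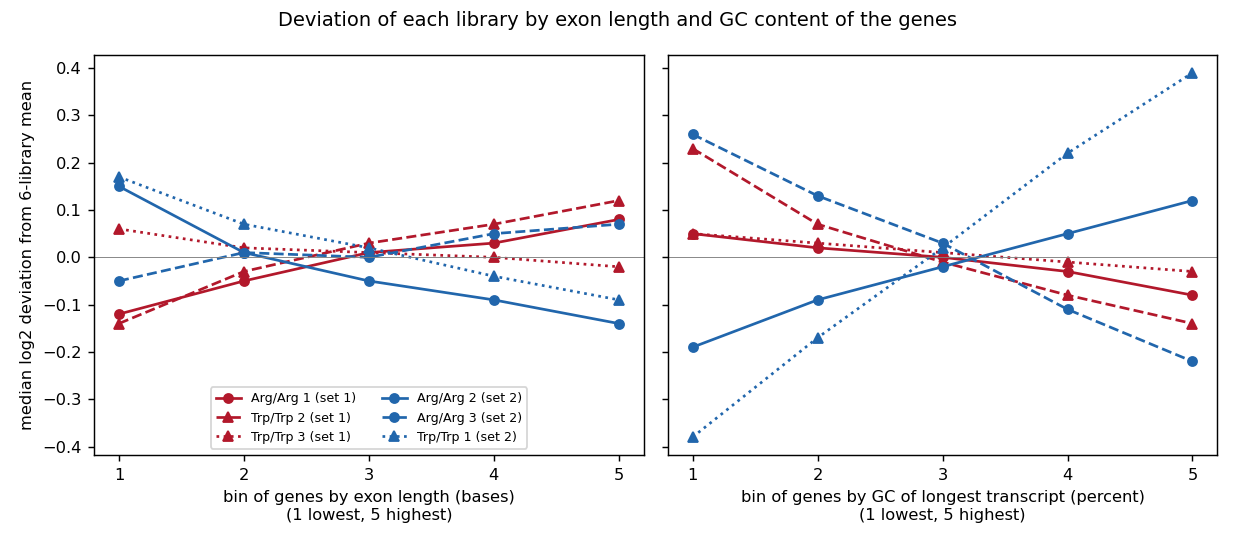
Median log2 deviation of genes from their mean over the 6 F4/80+ libraries (y axis) in 5 equal bins of genes by exon length (left) and by GC content of the longest transcript (right), a line per library; colour marks the set. Across GC bins Trp/Trp 1 climbs from -0.38 to 0.39 while Arg/Arg 3 falls from 0.26 to -0.22, so members of set 2 take opposite slopes.

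Genotype was then tested on the same libraries, since set 1 held 1 Arg/Arg and 2 Trp/Trp libraries and set 2 the reverse, so that both groupings share part of their contrast. edgeR's quasi-likelihood test with Benjamini-Hochberg adjustment called 0 of 12703 genes (0%) between Trp/Trp and Arg/Arg, with a smallest adjusted p of 0.558. At an unadjusted p under 0.05 there were 583 genes (4.59%) higher and 518 (4.08%) lower in Trp/Trp. With the library set as a term it also called 0, with 912 genes at an unadjusted p under 0.05. DESeq2 called 4 of 12209 genes, all lower in Trp/Trp, and all 4 overlapped between the library sets.

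Those 4 were Slc5a12, a lactate transporter of the early proximal tubule, Car14, a membrane carbonic anhydrase, Cyp26b1, which degrades retinoic acid, and Clec2h, a lectin-like protein. Slc5a12 was at 124, 191 and 363 CPM in Arg/Arg 1, 2 and 3 and at 41.5, 90.0 and 64.2 CPM in Trp/Trp 1, 2 and 3. In edgeR each had an adjusted p of 0.558. Sh2b3 was at 22.3, 26.7 and 22.4 CPM in Arg/Arg and 31.0, 17.1 and 21.9 CPM in Trp/Trp, and since the alleles differ in coding sequence its level does not check the labels.

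For the genes that set the libraries apart, the genotype difference within a set is of 2 libraries against 1 and has no test. Lrp2 had Trp/Trp minus Arg/Arg log2 differences of -0.31 within set 1 and -0.80 within set 2, beside -1.35 between the sets. Adgre1 had 0.37 and 0.17 beside 2.37, and Arntl 0.13 and 0.33 beside 1.84. For these 3 genes the difference between the sets was larger than that of the genotypes within either set. The sets were placed by these same values, which favours this order, so it does not weigh set against genotype. Il1b had genotype differences of 1.13 and 1.88 within sets 1 and 2, beside 1.92 between the sets. For Cd74 they were 0.79 and 1.70 beside 1.39, and for H2-Ab1 0.82 and 1.46 beside 0.83. In these last 2 genes the genotype difference within set 2 was the larger. In edgeR, which takes no account of the sets, the log2 fold changes of Il1b, Cd74 and H2-Ab1 were 1.82 ± 0.50, 1.43 ± 0.38 and 1.24 ± 0.27 (SE), each with an adjusted p of 0.558.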

How the data were processed

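PolyA RNA of F4/80+ cells was sequenced in 3 Arg/Arg and 3 Trp/Trp libraries, and columns were matched to samples by the short names in the titles. STAR, DRAGEN, DESeq2 and the build mm10 appear in the submitters' processing notes, without versions or roles, and no source used here gives the annotation. The F4/80+ table held raw counts per gene as the authors deposited them, with 18145 rows and a row sum of at least 10, so genes of very low count are missing from it.

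Counts of 13845 nuclear protein-coding rows were scaled by TMM (edgeR 4.0.16, R 4.3.3) and given as log2(CPM + 0.5), keeping 12703 with a mean count of at least 10. Mitochondrial genes stayed out of library sizes. None of the 15 pairs of libraries agreed within sampling noise. Genotype was tested over all these genes with edgeR's quasi-likelihood test at a Benjamini-Hochberg adjusted p under 0.05, and with DESeq2 1.42.0 as an alternative, after the code was tested on simulated data. An edgeR SE is the log2 fold change over the root of F, and so restates the test. Whole kidney was set beside on CPM taken over the nuclear coding genes that both tables hold. Length and GC content came from GENCODE M21 (build mm10) for 12699 genes, and 12606 genes had the same start and end there as in the table. Figures were drawn with matplotlib 3.10.9.

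Genes were named by a rule. It took the 12 largest separated differences in each direction at a mean of at least 20 CPM, with unnamed predicted genes left out. It also took up to 4 members of each nephron, immune or stress list at a mean of at least 2 CPM. Defining markers were added, and 4 genes in each direction closest to the first component. The text leaves out some of these, a few genes are not reported here, and it says where others were chosen after their values were seen. The sets, the 33 gene lists and the rule were chosen with earlier results of these data known. Alternatives were library size without TMM, DESeq2 size factors, other filters and pseudocounts, each library left out, a replicate block, the library set as a term and, added later, centring by GC content and length.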

Additional observations from a re-analysis of the deposited data

How the results depend on the processing

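Counts of separated genes moved by over 1.5 times under some settings. Library size without TMM gave 588 higher in set 1 and 175 in set 2, a mean count of at least 50 gave 211 in set 1, and a pseudocount of 2 gave 157 in set 1. Of the 689 main calls, 496, 459 and 439 remained under these, and 686 with DESeq2 size factors. Leaving out 1 library gave 269 to 824 genes higher in set 1 and 178 to 649 in set 2. The set 1 count was 485 without Arg/Arg 1 and 824 without Trp/Trp 1, and the set 2 count was 240 without Arg/Arg 2, 649 without Trp/Trp 1 and 178 without Trp/Trp 2. The early proximal tubule median lay between -1.34 and -0.73 over all settings, the macrophage median between 0.66 and 1.79, cytokines between 0.54 and 1.33, immediate early genes between 0.33 and 0.70, and the clock between -0.46 and -0.21. The dendritic cell median went from 0.41 to -0.29 at a mean count of at least 50. Medians nearer 0 changed sign too: MHC class I without Arg/Arg 3, endoplasmic reticulum stress and hypoxia without Trp/Trp 3, and NRF2 targets without TMM, and also the short or even lists of histones, red blood cells and monocytes. Each list and each named gene was counted once per alternative setting. In all, 22 list medians and 15 named gene differences moved beyond the spread between libraries, and 390 and 1519 did not.

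For genotype, edgeR called 0 genes under every setting run, and DESeq2 called 4. Genes at an unadjusted p under 0.05 numbered 1101 in the main test, and their count ran from 282 without Arg/Arg 3 to 2526 without Arg/Arg 1. It was 545 without Arg/Arg 2, 613 without Trp/Trp 2 and 672 without Trp/Trp 3. With a replicate block edgeR called 0, with 632 at an unadjusted p under 0.05. Same-numbered libraries deviated with correlations of -0.34, -0.57 and 0.21, and 2 of 6 libraries correlated best with their own number. These values gave no sign of pairing by number, but 3 libraries per genotype are too few to exclude it. Depth limits low genes: Adgre1 and C1qa rest on 354 and 139 counts over 6 libraries, and Ms4a7 lay at 0.111 to 1.85 CPM in set 2.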

Other observations

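Some lists outside the main description gave further values. Of 14 cell cycle genes 10 were higher in set 1, with a median of 0.34. Without overlap were 3, beside 11.4% of all genes, and none was separated by 2-fold. Over the list, set 1 held 153 to 182 CPM and set 2 123 to 141. Replication-dependent histones had a median of -0.03 over 13 genes, and dendritic cell genes one of 0.41 over 6 (-0.29 at a mean count of at least 50), with none of the 6 separated. Irf8, a factor of dendritic cells and monocytes, was at 4.19, 3.32 and 3.69 CPM in set 1 and 7.78, 4.56 and 12.3 CPM in set 2, against the direction of most macrophage markers. Red blood cell and platelet lists kept 2 genes each past the filter, with medians of -0.01 and -0.35. On the scale of genes in both tables, Lyz2 was at 58.7, 69.9 and 99.8 CPM in set 1 and 11.4, 12.4 and 36.6 CPM in set 2, beside 12.2 to 52.3 in whole kidney. C1qa was at 0.49 to 5.25 CPM in the 6 F4/80+ libraries, all below the 14.1 to 25.1 of whole kidney.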
